A study of Mus musculus with 42 samples.

Results

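The genes described here encode the proteins of the cytosolic ribosome. They were taken by name as the rows whose symbol is Rpl or Rps with a number (with at most 1 of the letters a, x, l or y), or Rplp0, Rplp1, Rplp2 or Rpsa, leaving out Rpl22, and were kept where 3 or more of the 42 libraries had a value of 10 or higher. Of 81 such names 79 passed, 32 of the small and 47 of the large subunit, among 16613 genes tested and 47729 in the table. Rpl10l, listed at 0 in every library, and Rpl6l, whose highest value was 1.20, lay outside the minimum. Just inside it were Rpl3l, at 10 or more in 29 libraries, and Rpl39l, in 32, while the other 77 reached 10 in all 42.

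Bulk RNA was sequenced from subcutaneous Pan02 tumours, a mouse pancreatic cancer line injected into the right flank of wild-type mice (C57BL/6J or Balb/c, per the labels' protocol). Mice received BXCL701, an oral small-molecule inhibitor of dipeptidyl peptidases, at 20 ug daily by gavage, or vehicle (PBS), and no genetic change is named in the labels. There were 14 groups of 3 animals. Vehicle tumours were all of 0 h, on day 1 (single dose), day 7 and day 14 (daily dosing). BXCL701 tumours of day 1 were of 1, 8 and 16 h after a single dose. Those of day 7 and of day 14 were of 0, 1, 8 and 16 h under daily dosing. Hours other than 0 had no vehicle tumours, so that treatment and hour cannot be told apart there. Values are scaled read estimates whose total per library ran from 19133149 to 26633378. The 5 tumour epithelium genes chosen as a check of the tissue summed to between 15462 and 79906 in every library. Whole tumours also hold other cells, and fewer cells of a type and less RNA per cell cannot be told apart.

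A ribosome contains 1 copy of nearly every one of these proteins, so cells make them in balanced amounts and rank their mRNAs among the most abundant. In vertebrates most of these mRNAs begin with a terminal oligopyrimidine (TOP) tract, a run of C and T in the DNA, through which mTOR and Larp1 control their translation together. A few members have a paralogue with restricted use, such as Rpl3l, which takes the place of Rpl3 in heart and skeletal muscle.

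Promoter windows were read from RefSeq (GRCm38.p6), which held 69 start sites for 58 of the 79 genes. The windows below show the 4 genes that passed the test on day 14, Rps6 as a member with the classical tract, and the paralogues Rpl3l and Rpl39l. Each runs from 50 bases before to 30 bases after the annotated start, 5′ to 3′ on the gene's strand, with runs of at least 8 C or T in capitals.
Rpl34 (chr3:130730308-130730387, minus strand): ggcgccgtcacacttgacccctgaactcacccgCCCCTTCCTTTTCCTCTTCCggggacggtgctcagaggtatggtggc
Rpl5 (chr5:107900478-107900557, plus strand): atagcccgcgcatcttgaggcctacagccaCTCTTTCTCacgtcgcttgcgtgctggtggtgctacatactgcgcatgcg
Rpl39 (chrX:37085193-37085272, minus strand): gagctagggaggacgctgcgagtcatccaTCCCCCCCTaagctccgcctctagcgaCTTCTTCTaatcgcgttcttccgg
Rpl36a (chrX:134585604-134585683, plus strand): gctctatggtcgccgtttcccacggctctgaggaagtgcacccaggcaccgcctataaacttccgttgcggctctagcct
Rps6 (chr4:86857338-86857417, minus strand): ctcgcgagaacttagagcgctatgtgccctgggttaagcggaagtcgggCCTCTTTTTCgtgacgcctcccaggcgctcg
Rpl39l (chr16:10170178-10170257, plus strand): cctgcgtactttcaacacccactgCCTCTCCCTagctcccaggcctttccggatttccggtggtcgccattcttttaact
Rpl3l (chr17:24727776-24727855, plus strand): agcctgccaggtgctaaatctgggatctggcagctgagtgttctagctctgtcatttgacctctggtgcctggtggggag
Such a run was present in 38 of the 58 genes (65.5%), against 33.6% of 27025 genes in the whole RefSeq table. Runs anywhere in the window were taken, also wholly before the annotated start as in Rpl5 and Rpl39l. The count is therefore not a count of TOP tracts. The run was 20 bases long in Rpl34, and absent from the windows of Rpl36a and Rpl3l. Rpl34 and Rpl3l had 2 start sites each, and where a gene had several the window with the longest run is shown. CCGGAAG, the core bound by ETS factors, was searched on both strands of the full 300 bases and occurred in 25 of the 58 genes (43.1%) against 9.93% of all genes. AAGATGGC, searched in the same way, occurred in 4 of 58 (6.90%) against 3.19%. These are letter matches in annotated windows and not measured binding.

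Levels can be compared between genes on the authors' log2 FPKM scale, which divides by transcript length. The median over the 79 genes was 10.56 log2 FPKM (10.77 for the small and 10.23 for the large subunit). Rpl41, the shortest ribosomal protein, was highest at a median of 12.002 log2 FPKM, beside 11.995 for the stalk protein Rplp1 and 11.80 for Rps26. Between libraries Rpl41 ran from 11.21 to 13.04 and Rplp1 from 11.44 to 12.89 log2 FPKM, so that the order at the top lay within their spread. Rplp0, the scaffold of the stalk, stood at 11.34, Rplp2 at 9.98, Rpsa at 9.997, Rps6 at 10.74 and Rpl11 at 10.56 log2 FPKM. At the bottom were Rpl27 (7.16), Rpl12 (5.71), Rpl5 (4.61), Rps4l (3.997), Rpl39l (1.21) and Rpl3l (0.07). The low places of Rpl5, Rpl12 and Rpl27 go with values held in the rows of identical copies, given further on.

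The members rose and fell together from library to library. On log2(value + 1), the scale of all values below, the 76 members other than Rpl3l, Rpl39l and Rps4l had SDs over the 42 libraries of 0.22 to 0.48 (median 0.36). Subtracting each library's median over the 79 genes left a median SD of 0.11 for these 76, with 0.052 for Rpl23a as the lowest and 0.53 for Rpl10 as the highest. The median SD of all 16613 genes was 0.42. Among the 876 genes with a mean of at least 12 it was 0.31.

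The shared level is given as the library's median, over the 79 genes, of the deviation from each gene's own mean. It ran from -0.82 to 1.00 log2 over the 42 libraries, and the 79 genes took 3.68% to 9.22% of all values (median 5.65%). The highest libraries were BXCL701 day 7 8 h replicate 3 (1.00), vehicle day 14 replicate 2 (0.85) and vehicle day 1 replicate 2 (0.82). The lowest were BXCL701 day 7 0 h replicate 2 (-0.82) and vehicle day 7 replicate 2 (-0.58). In each of these groups the other 2 animals were closer to 0, and the pooled SD within groups was 0.30.

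Among vehicle groups the shared level was 0.30 ± 0.46 (SD, n = 3) on day 1, -0.30 ± 0.25 on day 7 and 0.41 ± 0.38 on day 14. With BXCL701 on day 1 it was 0.22 ± 0.10 at 1 h, -0.20 ± 0.04 at 8 h and -0.08 ± 0.15 at 16 h. On day 7 it was -0.38 ± 0.42 at 0 h, -0.01 ± 0.35 at 1 h, 0.39 ± 0.53 at 8 h and 0.01 ± 0.22 at 16 h. On day 14 it was 0.08 ± 0.12 at 0 h, -0.14 ± 0.27 at 1 h, -0.13 ± 0.31 at 8 h and -0.14 ± 0.13 at 16 h. Most neighbouring groups in this order overlapped. The exceptions were vehicle day 7, wholly below vehicle days 1 and 14, and BXCL701 day 1 at 8 h, wholly below 1 h. The widest spread was at 8 h on day 7 with BXCL701, where replicate 3 stood at 1.00 and the other 2 animals at 0.10 and 0.07.

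**Figure D1:**
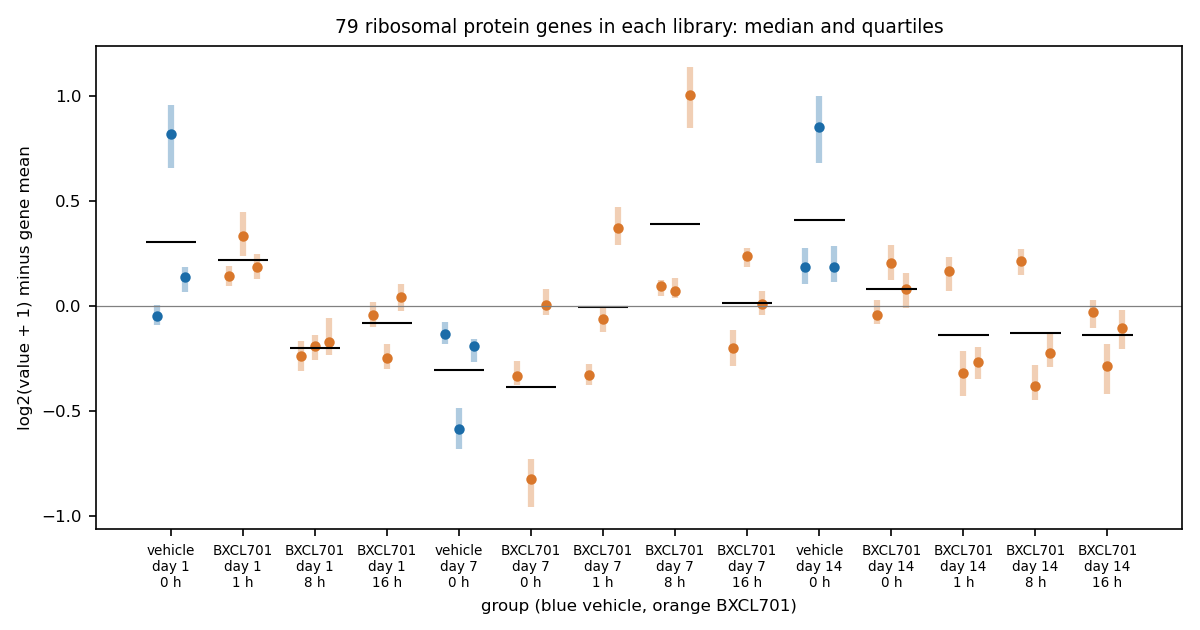
Deviation of the 79 ribosomal protein genes from their own means (y axis, log2) in each of 42 libraries by group (x axis); points are library medians, pale bars the quartiles over genes, black lines group means. Single libraries at 1.00, 0.85, 0.82 and -0.82 stand apart from the other 2 of their groups, while the quartile bars within a library are short.

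The shared level moved with a measure of transcript length. The length index of a library is the slope of gene deviation on log2 exon length over 11491 genes. It ran from -0.41 to 0.33, and a low index means that short transcripts were read high. Ribosomal protein mRNAs are short, with a median annotated principal transcript of 834 bases over 76 members. The exon length used by the index is another measure. It joins all annotated exons of a gene and can be longer, as in Rpl13 (2595 against 780 bases). BXCL701 day 7 8 h replicate 3 and vehicle day 1 replicate 2, 2 of the 3 highest for these genes, had the lowest indices of -0.41 and -0.37. Vehicle day 7 replicate 2 and BXCL701 day 7 0 h replicate 2, the 2 lowest, had the highest indices of 0.33 and 0.33. Vehicle day 14 replicate 2 had an index of -0.16 with a shared level of 0.85, above libraries of a similar index. Across the 76 members, shorter transcripts varied more between libraries (Spearman rho -0.38 between SD and transcript length, a description across genes that share the same libraries). What sets the index was not tested.

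**Figure D2:**
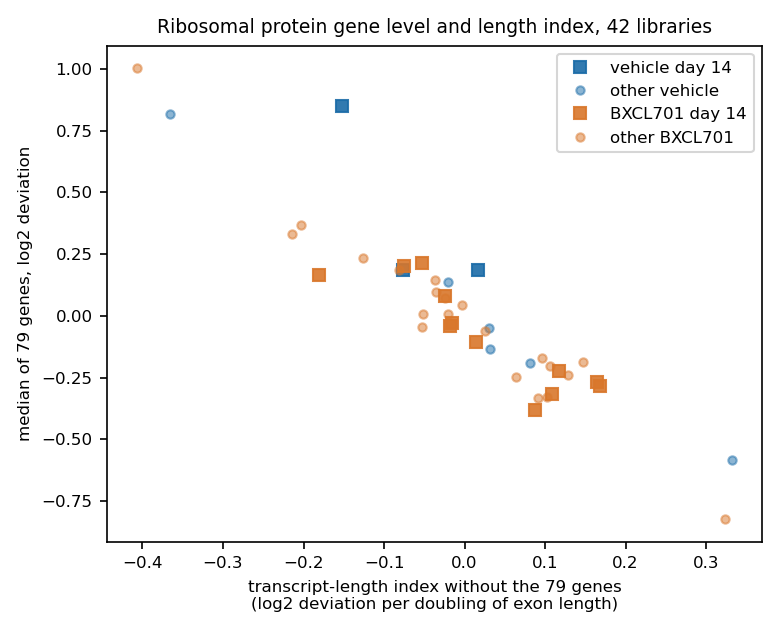
Median deviation of the 79 genes (y axis, log2) against the transcript-length index computed without them (x axis, log2 deviation per doubling of exon length) in 42 libraries; squares are day 14, circles other days, blue vehicle, orange BXCL701. The points fall from upper left to lower right, and vehicle day 14 replicate 2, at 0.85, lies above the rest of the band.

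The day 14 comparison asks how tumours of BXCL701-treated mice (0, 1, 8 and 16 h with equal weight, 12 animals) differed from vehicle tumours (3 animals, 0 h). All 79 log2 differences were below 0, and 4 of them passed the test, with a median of -0.50 against -0.01 over all genes. In limma's moderated test with Benjamini-Hochberg adjustment over all genes, 4 members passed 0.05 as lower, Rpl5, Rpl34, Rpl39 and Rpl36a, all of the large subunit, and none as higher, beside 1.03% of all genes called lower and 2.26% called higher. At an unadjusted p under 0.05, 61 of the 79 were lower and 0 higher, beside 8.08% of all genes lower and 9.67% higher. The members share each library's level, so their number is not a number of independent results.

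Rpl5 (chr5:107900502-107909005), which together with Rpl11 can bind Mdm2, had values of 9.98, 10.75 and 9.77 in the vehicle tumours. With BXCL701 it ran from 9.19 to 9.82 with a median of 9.59. The 2 groups overlapped only through the lowest vehicle tumour. The difference was -0.60 ± 0.13 (SE, adjusted p = 0.0121).

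Rpl34 (chr3:130726831-130730398) had values of 13.47, 14.12 and 13.27 in vehicle tumours and 12.77 to 13.34 (median 13.002) with BXCL701. Its difference was -0.62 ± 0.16 (adjusted p = 0.0248). Replicate 2 was again the highest vehicle tumour and replicate 3 the lowest, inside the BXCL701 range.

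Rpl39 (chrX:37082520-37085402), a small protein lining the exit tunnel for nascent chains, had values of 12.61, 12.98 and 12.40 against 11.23 to 12.43 (median 11.93). The difference was -0.73 ± 0.20 (adjusted p = 0.0407). Rpl36a (chrX:134585654-134588062) had values of 12.81, 13.47 and 12.51 against 12.16 to 12.65 (median 12.35), a difference of -0.56 ± 0.16 (adjusted p = 0.0417). In both genes vehicle replicate 3 lay within the BXCL701 range and the other 2 vehicle tumours lay above it.

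Other members had differences of like size that did not pass. Among the stalk proteins, Rplp0 differed by -0.45 ± 0.18, Rplp1 by -0.57 ± 0.21 and Rplp2 by -0.59 ± 0.23 (adjusted p 0.156, 0.129 and 0.154). Rpsa, which also binds laminin as a cell surface receptor, differed by -0.50 ± 0.22, and Rps6, the substrate of the S6 kinases, by -0.51 ± 0.17 (adjusted p 0.211 and 0.0952). The second gene of the Rps27 pair, Rps27l, a target of p53, differed by -0.53 ± 0.16 (adjusted p 0.0573) and Rps27 by -0.53 ± 0.23 (adjusted p 0.204). Rpl41 had a difference of -0.74 ± 0.23, Rps29 of -0.65 ± 0.22 and Rpl38 of -0.57 ± 0.25. In 4 of the 79 members the 3 vehicle values all lay above all 12 BXCL701 values, beside 0.476% of all genes. Rpl41, Rps23 and Rps29 were among them. The smallest differences were those of Rpl10 (-0.003 ± 0.16), Rpl15 (-0.21 ± 0.12), Rpl3l (-0.21 ± 1.42) and Rpl4 (-0.22 ± 0.14).

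**Figure D3:**
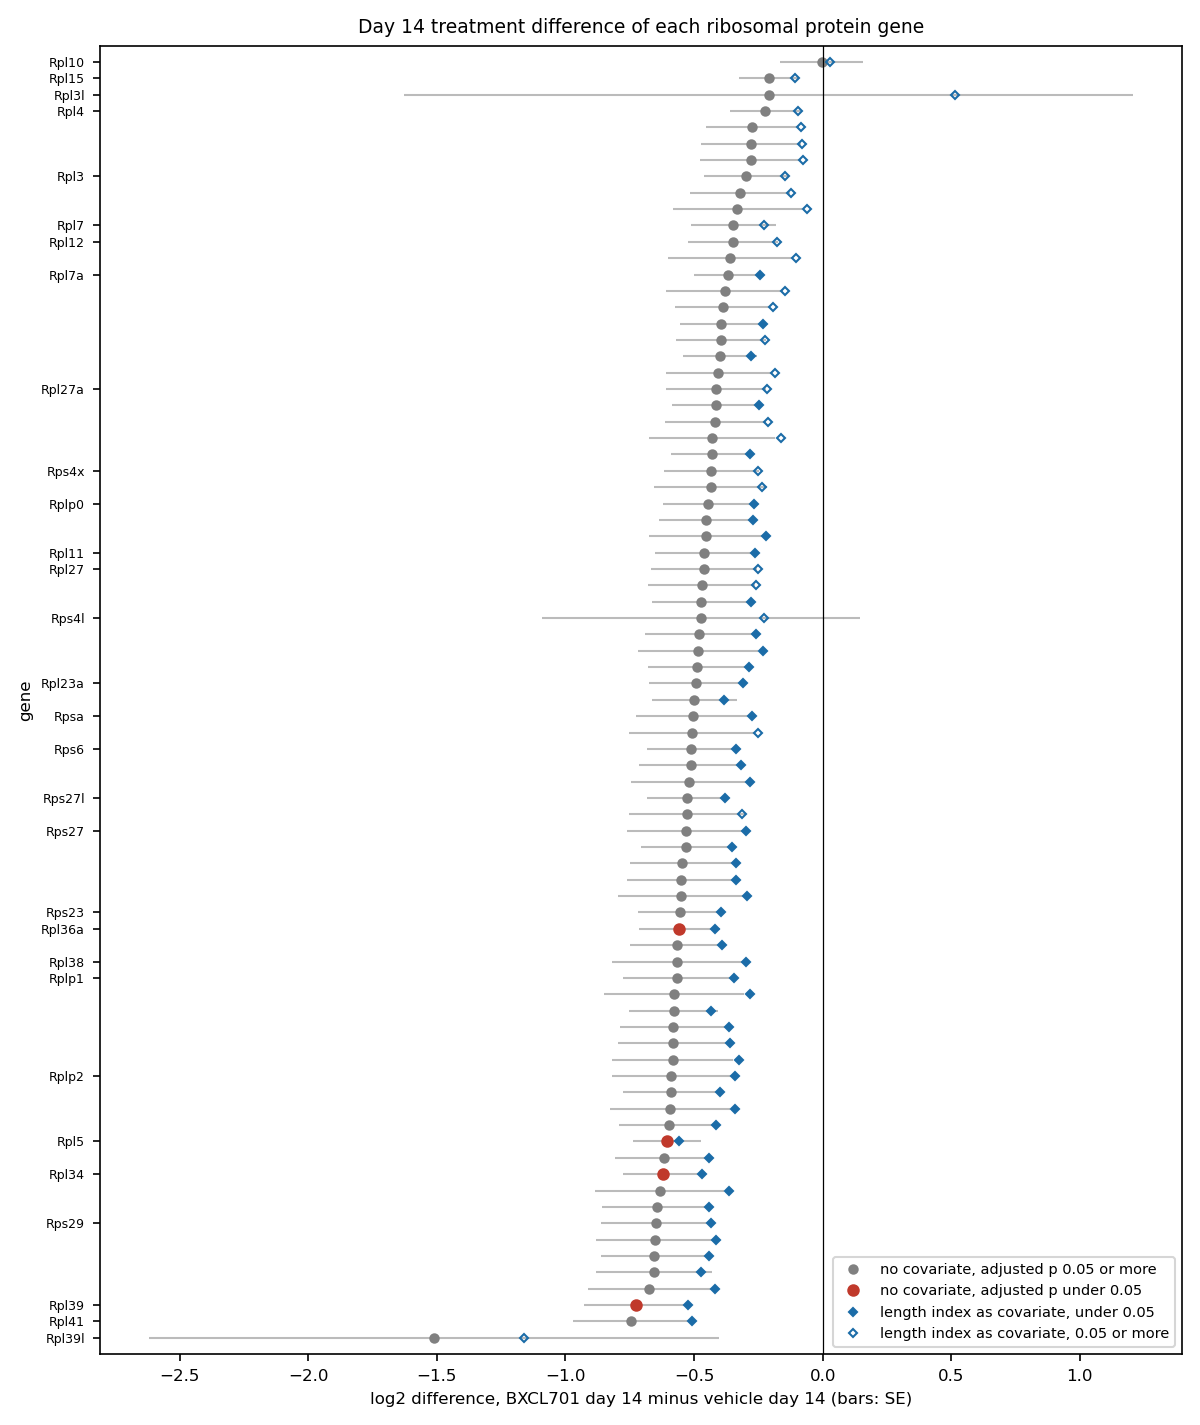
Log2 difference between BXCL701 and vehicle tumours on day 14 (x axis) for each of the 79 genes (y axis, with a selection of genes labelled), without a covariate (circles with SE, red where the adjusted p was under 0.05) and with the length index as covariate (diamonds, filled where under 0.05). All 79 circles lie below 0, 4 of them red (beside 1.03% of all genes called lower), and 51 diamonds are filled (beside 10.1%).

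The size and the number of these calls turned on vehicle day 14 replicate 2 and on the length index. Without replicate 2 the median difference was -0.27 and 0 members passed, with 0 genes called lower and 1 called higher in all. Without replicate 1, 1 passed (0.409% of all genes lower), and without replicate 3, 22 passed (5.14% of all genes lower). With the length index as a covariate the median was -0.28, and 51 passed as lower, beside 10.1% of all genes. Among the 51 were Rpl34 (-0.47 ± 0.09, adjusted p = 0.00163), Rpl39 (-0.52 ± 0.10), Rpl41 (-0.51 ± 0.10), Rplp0 (-0.27 ± 0.08), Rps6 (-0.34 ± 0.08) and Rpl11 (-0.26 ± 0.08). Computing the index without the 79 genes also gave 51, beside 9.91%. Without the 4 libraries of most extreme index, which are of days 1 and 7 and so enter this comparison only through the shared estimate of spread, the median was again -0.50 and 37 passed, beside 2.73% of all genes. The authors' FPKM values gave 11 (0.963%), median-of-ratios scaling 5 (0.861%), no filter on low values 2 (0.594%), muscle, keratinocyte and adipocyte levels as covariates 2 (0.999%), and a pseudocount of 5 gave 4 (1.02%). The libraries of the comparison fitted alone gave 0 members, with 1 gene in all called, as higher.

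Other cell markers moved in the same comparison. Of 6 neutrophil genes 4 were called higher with BXCL701, their summed value being 2010 to 5823 against 1645 to 2163 in vehicle. Of 5 macrophage genes, Adgre1 and Mertk were called higher, with sums of 18188 to 38756 against 15339 to 25502. Of 6 T cell genes, Cd8a was called higher, with sums of 499 to 1397 against 277 to 974. Of the muscle (10), keratinocyte (10), adipocyte (8), fibroblast (4) and red blood cell (4) genes none was called, and up to 4 keratinocyte genes were at 0 in a library. Without vehicle day 14 replicate 2 only 1 gene in all was called in this comparison, against 376 higher and 171 lower with it, so at most 1 of the calls among these markers and the gene lists that follow passed without it. The part of these cells in the ribosomal protein result was not tested.

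In lists of genes that work with ribosomal proteins, most differences were below 0 on day 14. Few passed the test outside the small nucleolar RNA host genes, beside 1.03% of all genes called lower and 2.26% higher. Of all 16613 genes 8566 were below 0. Of 14 tested genes for elongation and other TOP mRNAs, 14 were lower (median -0.35) and 2 passed. Those were Naca (-0.63 ± 0.12, adjusted p = 0.00673) and Btf3 (-0.57 ± 0.15, adjusted p = 0.0349), the 2 subunits of the nascent chain complex. Of 28 initiation factors 25 were lower (median -0.24) and 1, Eif1ax, passed at -0.44 ± 0.11. Of 33 ribosome biogenesis genes 24 were lower (median -0.10) and 0 passed, Npm1 being at -0.54 ± 0.16 with an adjusted p of 0.0549. Of 9 tested small nucleolar RNA host genes, whose spliced RNAs also start with a TOP tract, 9 were lower (median -0.63) and 5 passed, among them Gas5 (-0.63 ± 0.12) and Snhg6 (-0.69 ± 0.14). In a list of 76 mitochondrial ribosomal proteins, added after the values were seen, 73 were lower (median -0.27) and Mrps33 and Mrps14 passed. Of 20 regulators of these genes Tsc1, the mTOR inhibitor, was called higher at 0.63 ± 0.15. Mtor (0.37 ± 0.13), Larp1 (0.18 ± 0.10) and Myc (-0.11 ± 0.25) did not pass. With the length index as a covariate, 5, 9, 2, 7, 9 and 6 genes of these lists, in the order given, passed as lower. That was beside 10.1% of all genes. In the same fit 3 regulators passed as higher, beside 1292 of 16613 genes, and the mitochondrial median was -0.12.

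On day 7 the median difference between BXCL701 and vehicle was 0.30, with 76 members higher. In limma's test 0 passed, beside 0.00602% of all genes called higher, and 6 were higher at an unadjusted p under 0.05 (5.75% of all genes). The smallest p-values were those of Rpl7 (0.38 ± 0.17), Rpl15 (0.27 ± 0.12) and Rpl7a (0.29 ± 0.13), each with an adjusted p of 0.493. With the length index as a covariate the median was -0.04, the opposite sign. It was 0.16 without vehicle day 7 replicate 2 and 0.15 without the 4 libraries of most extreme index.

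On day 1 the median difference was -0.33, with 78 members lower and 0 called, beside 0% of all genes, while 1 was lower at an unadjusted p under 0.05 (1.05%). That median was -0.06 without vehicle day 1 replicate 2 and -0.06 with the length index. At 0 h alone, days 7 and 14 together, the median was -0.20, with 77 lower and 0 called (0.0361% of all genes lower). The median was -0.08 without BXCL701 day 7 0 h replicate 2. At an unadjusted p under 0.05, 3 were lower beside 3.87%. Rpl5 had the smallest p there, at -0.35 ± 0.12 (adjusted p = 0.173). With the length index 6 passed as lower, beside 1.32% of all genes (1.28% with the index computed without the 79 genes). Without vehicle day 14 replicate 3, 1 passed, beside 1.49%.

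The test of the day 14 difference minus the day 7 difference gave a median of -0.81 with 78 members below 0. None passed (0% of all genes lower), with a smallest adjusted p of 0.178 for Rpl36a (-0.85 ± 0.22) and Rpl34 (-0.84 ± 0.22). At an unadjusted p under 0.05, 74 were below 0, beside 8.94% of all genes. Leaving out vehicle day 14 replicate 3 brought 22 past the threshold, beside 2.61% of all genes. Without vehicle day 14 replicate 2 the median was -0.59 and 0 passed (0% of all genes). Without vehicle day 7 replicate 2 it was -0.66 and 0 passed (0%). The length index took the median to -0.25.

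Vehicle tumours themselves differed between days by as much. Day 14 was above day 7 in 78 members (median 0.72), Rpl10 being the exception. None passed (0% of all genes higher), but at an unadjusted p under 0.05, 75 were higher, beside 9.11% of all genes. Rpl10 was lower at that level, beside 6.73%. Without vehicle day 14 replicate 3, 29 passed (4.08%). Without vehicle day 14 replicate 2 the median was 0.50 and 0 passed (0%). Without vehicle day 7 replicate 2 it was 0.56 and 0 passed (0%). In 68 of 79 the 3 day 14 values lay above the 3 day 7 values, beside 8.2% of all genes. Day 7 was below day 1 in 78 (median -0.63), with 0 called (0% lower) and 64 at an unadjusted p under 0.05 (9.91%), and in 57 the 3 day 1 values lay above the 3 day 7 values, beside 10.3% of all genes. With the length index as a covariate the medians were 0.27 for day 14 against day 7 and -0.08 for day 7 against day 1. The latter was -0.35 without vehicle day 1 replicate 2 and -0.21 without the 4 libraries of most extreme index. Day 14 against day 1 had a median of 0.09, with 62 members higher and 0 called (0.0542% of all genes higher). That median was -0.12 without vehicle day 14 replicate 2 and 0.36 without vehicle day 1 replicate 2. Without vehicle day 14 replicate 3, 2 passed (2.41%), and with the length index 4 (1.05%). These comparisons and the treatment comparisons use the same vehicle libraries.

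The hour after dosing gave no member past the threshold. With BXCL701 on days 7 and 14, the median difference from 0 h was 0.08 at 1 h, 0.28 at 8 h and 0.08 at 16 h. Background calls of higher genes were 0.012%, 0.0963% and 0.00602%. At an unadjusted p under 0.05, 10 members were higher at 8 h, beside 5.42% of all genes. The smallest p at 8 h belonged to Rpl7 (0.36 ± 0.15, adjusted p = 0.478). Without BXCL701 day 7 8 h replicate 3 the 8 h median was 0.12. Without BXCL701 day 7 0 h replicate 2 the 1 h and 16 h medians turned to -0.03 and -0.03. With the length index the medians were -0.01, 0.07 and 0.02.

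Many of these genes have processed copies elsewhere in the genome, which can divide their reads. The coding sequences of all members but Rps4l were aligned to the annotated transcripts of GENCODE M21. For 70 members, 470 copies with at least 95% identity over at least 80% of the coding sequence were found, 27 of them with a mean value of at least 100. The coding sequences of Rpl5 (894 bases) and Rpl10 (645 bases) occur without a mismatch in Gm15500 (chr7:114705217-114706235) and Rpl10-ps3 (chr9:50344201-50344968). Their first 60 bases are shown because a read within them does not tell the rows apart.
Rpl5 and Gm15500: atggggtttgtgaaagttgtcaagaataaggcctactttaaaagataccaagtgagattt
Rpl10 and Rpl10-ps3: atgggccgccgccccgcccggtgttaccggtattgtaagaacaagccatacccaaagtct
The mean value was 24211 for Gm15500 against 754 for Rpl5, and 19595 for Rpl10-ps3 against 4323 for Rpl10. In 5 genes the named row held less than its copies together, given here as its share of the sum. These were Rpl5 (3.02%), Rpl12 (4.96%, beside Gm10275), Rpl27 (9.53%, beside Rpl27-ps3), Rpl10 (18.1%) and Rpl27a (39.2%, beside Gm7536). Where the reads came from cannot be told from these values.

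Adding the copies changed 2 of the 4 calls of day 14. The sum for Rpl5 and its copies differed by -0.34 ± 0.12 (adjusted p = 0.0975), and that for Rpl39 by -0.60 ± 0.18 (adjusted p = 0.0523). Rpl34 (-0.62 ± 0.16, adjusted p = 0.0248) and Rpl36a (-0.55 ± 0.15, adjusted p = 0.0371) passed with copies added, beside 1.02% of all genes lower. The sum for Rpl10 differed by -0.43 ± 0.19, near the median of -0.50, where its own row differed by -0.003. Wdr89, whose annotated transcript holds a stretch 99.4% identical to the coding sequence of Rplp2, was itself called lower at -0.81 ± 0.13 (adjusted p = 0.00213).

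The row named Rpl10 was the 1 member called in BXCL701 tumours of day 14 against days 7 and 1. These comparisons were chosen after its values were seen. Rpl10 helps shape the peptidyl transferase centre. Its row had values of 4712 to 6229 on day 1, 3224 to 6272 on day 7 and 1908 to 4398 on day 14 (medians 5399, 4741 and 3205 scaled reads). Vehicle tumours ran from 4416 to 5459 on day 1, 4700 to 4938 on day 7 and 2542 to 3586 on day 14. Every vehicle value of day 14 lay below every vehicle value of days 1 and 7, and the BXCL701 days 7 and 14 overlapped.

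As these comparisons between days were chosen after the Rpl10 values were seen, their adjusted p-values are descriptions and no independent test. Against day 7, with the same 4 hours, Rpl10 fell by 0.62 ± 0.10 on the log2 scale (limma adjusted p = 0.00729). It was the only gene of 16613 called lower (0.00602%), with 1 called higher. Against day 1, with 1, 8 and 16 h, it fell by 0.95 ± 0.12 (adjusted p = 5.99e-05), beside 0.698% of all genes called lower and 0.572% higher, and it was the only member called. With its copies added the differences were -0.22 ± 0.12 and -0.22 ± 0.14 (adjusted p 0.960 and 0.397). Rpl10-ps3 differed by -0.13 ± 0.14 and -0.06 ± 0.16, neither called. The share of the sum held by the named row was 20.2% to 26.9% in BXCL701 tumours of day 1, 9.496% to 24.1% on day 7 and 9.78% to 18.2% on day 14. In vehicle it was 11.3% to 23.4%, 20.3% to 30.3% and 7.63% to 12.8%. Both sets of tumours thus had their lowest upper limit on day 14, and what divides the sum between rows was not tested.

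**Figure D4:**
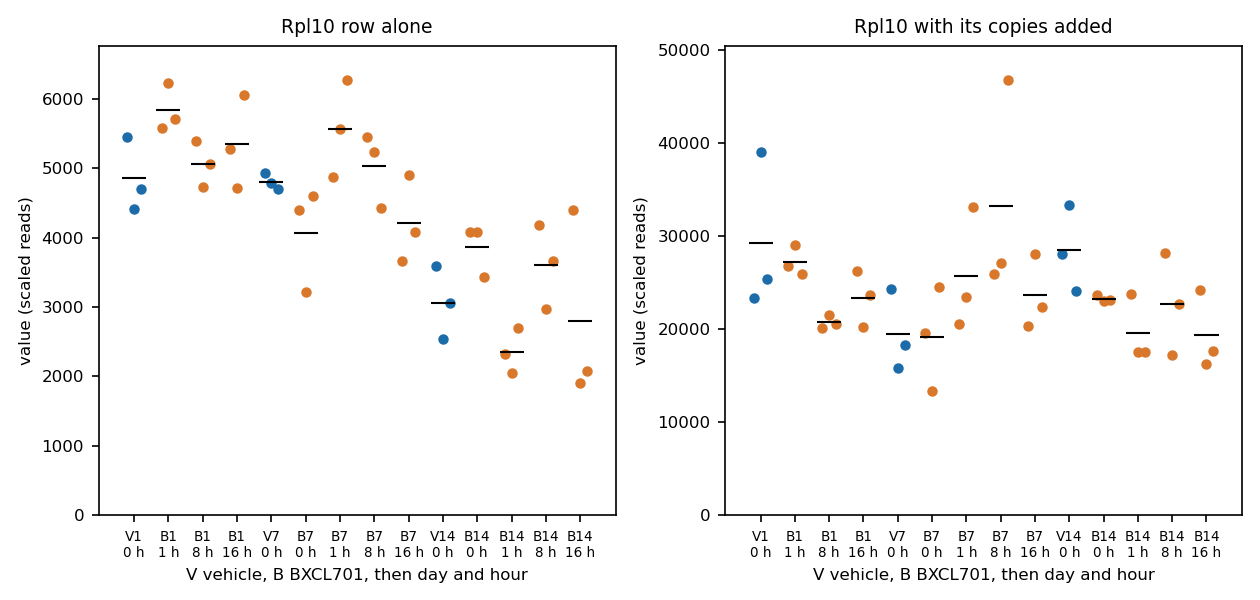
Value of Rpl10 in scaled reads (y axes, from 0) in the 42 libraries by group (x axes, V vehicle and B BXCL701 with day and hour), for its own row (left) and for the sum with its copies (right); lines are group means. The row alone is at 1908 to 4398 in BXCL701 tumours of day 14, while the sum there, at 16220 to 28201, overlaps that of day 7.

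After subtraction of the library median, adding copies took the SD of Rpl10 from 0.53 to 0.13, of Rpl5 from 0.35 to 0.17, of Rpl12 from 0.21 to 0.11 and of Rpl27 from 0.16 to 0.08. For Rpl36a it went from 0.13 to 0.16.

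The members with the largest spread after subtraction of the library median were the paralogues Rpl3l (SD 2.32), Rpl39l (1.79) and Rps4l (1.01). Rpl39 and Rpl39l have coding sequences of 156 bases that differ at 23, shown in capitals, so that reads over these bases can tell them apart.
Rpl39: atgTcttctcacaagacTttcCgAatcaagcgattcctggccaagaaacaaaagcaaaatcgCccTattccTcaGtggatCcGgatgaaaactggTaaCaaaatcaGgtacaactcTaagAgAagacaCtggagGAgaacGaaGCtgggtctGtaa
Rpl39l: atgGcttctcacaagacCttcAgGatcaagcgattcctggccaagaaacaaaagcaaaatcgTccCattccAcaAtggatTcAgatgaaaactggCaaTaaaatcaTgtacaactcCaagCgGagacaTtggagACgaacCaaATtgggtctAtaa
Rpl39l, best known from male germ cells, ran from 43.9 to 92.7 scaled reads in vehicle tumours of day 1, 10.1 to 81.6 on day 7 and 14.4 to 125 on day 14. Rps4l, a relative of Rps4x, ran from 347 to 505, 106 to 302 and 94.5 to 520 on the same days. Rpl3l ran from 17.1 to 214, 0.70 to 65.1 and 11.9 to 27.9. In BXCL701 tumours of days 1, 7 and 14 Rpl39l ran from 9.44 to 146, 0.004 to 90.9 and 0.597 to 107. On the same days Rps4l ran from 148 to 577, 44.0 to 705 and 41.1 to 433. Rpl3l ran there from 4.12 to 163, 0.019 to 125 and 0.025 to 997. The SDs of Rpl39l and Rpl3l thus include values near the floor. Treated and vehicle ranges overlapped on every day, and no treatment comparison called any of the 3.

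The levels of these 3 were set beside markers of other tissue in the same library. The pairs of gene and marker list were chosen after the values were seen, and 6 relations were computed over 42 libraries. Rps4l rose with the sum of 4 fibroblast genes (Pearson r = 0.93, Spearman rho = 0.93), as did Rpl39l (r = 0.89, rho = 0.90), and Rpl3l rose with the sum of 10 skeletal muscle genes (r = 0.93, rho = 0.95). Each had a two-sided permutation p of 1e-05, the smallest that 100000 permutations can give (adjusted p = 2e-05). As the pairs were chosen from these same values, these p-values are descriptions and no independent test. The adjustment covers the 6 relations and not the other pairs of gene and marker list that could have been chosen. Without the 2 libraries farthest from the median marker level r was 0.93, 0.89 and 0.93, and after subtraction of group means it was 0.93, 0.89 and 0.92. Their widely expressed partners showed no such relation. The values of r were -0.03 for Rps4x, 0.03 for Rpl39 and -0.08 for Rpl3, with permutation p-values of 0.843, 0.842 and 0.625 (adjusted p = 0.843 for each). The values of rho were -0.06, 0.01 and -0.14 with permutation p-values of 0.683, 0.966 and 0.369 (adjusted p = 0.820, 0.966 and 0.554). Over all libraries the fibroblast sum ran from 45131 to 528534 and the muscle sum from 44.5 to 296092. The labels give no batch within which to repeat these values.

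**Figure D5:**
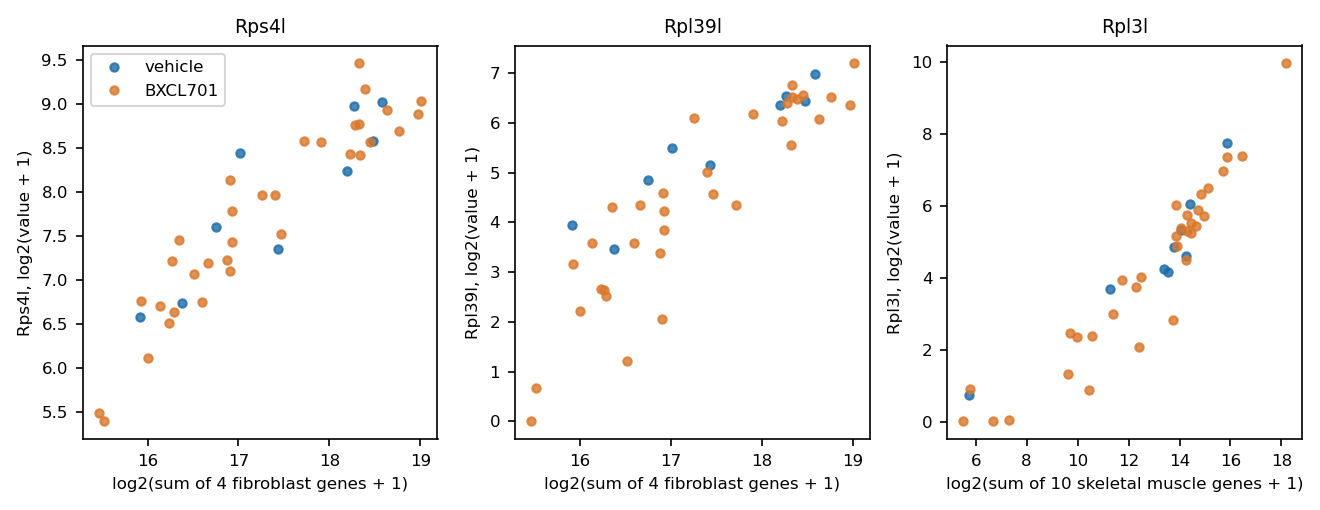
Rps4l and Rpl39l against the log2 sum of 4 fibroblast genes, and Rpl3l against the log2 sum of 10 skeletal muscle genes (y axes, log2 of value + 1), in 42 libraries, blue vehicle and orange BXCL701. All 3 genes rise along the marker axis, with r of 0.93, 0.89 and 0.93, and the 2 colours overlap.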

How the data were processed

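RNA of 42 tumours was analysed. The submitters' processing notes list Trimmomatic 0.36, the aligner Bowtie 0.12.9 and the build GRCm38, and how reads were assigned to genes is not given in the sources used here. Values in the authors' main table were not whole numbers, so this deposited signal was taken as scaled read estimates and no count model was fitted. The authors' log2 FPKM table served as an alternative and for levels between genes. From log2(value + 1), limma 3.58.1 (R 4.3.3) fitted 14 group means over 16613 genes (trend and robust), with 28 residual degrees of freedom and Benjamini-Hochberg adjustment; 0.05 was the threshold. The fit was tried on simulated data drawn independently for each gene. These held no level shared within a library, so they say nothing of calls under such a level. Copies were found with blastn 2.17.0. Members and gene lists were chosen with earlier results of these data known. Named genes are, in each comparison, the 5 members of smallest p in each direction among those past the threshold, or the 3 of smallest p where fewer pass, with fixed paralogue pairs and well-known members, and the 5 of largest spread. Alternatives were another scaling, no filter, own libraries only, FPKM, length index and tissue levels as covariates, a pseudocount of 5, and libraries left out. Depth is known only as scaled totals, which limits precision for low genes such as Rpl3l.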

Additional observations from a re-analysis of the deposited data

How the results depend on the processing

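On day 14, 4 members were called lower, beside 1.03% of all genes. Shares of all genes called lower follow in brackets. The 4 members became 5 with median-of-ratios factors (0.861%) and 4 with a pseudocount of 5 (1.02%). They became 2 without a filter (0.594%), 0 with the libraries of the comparison alone (0%) and 11 with the FPKM table (0.963%). With the length index they became 51 (10.1%), and 51 with the index computed without the members (9.91%). With muscle, keratinocyte and adipocyte levels as covariates they became 2 (0.999%). Without the 4 libraries of most extreme index they became 37 (2.73%). They became 2 with copies added (1.02%) and 0 without the 3 libraries of highest shared level (0%). The last 2 and the second index were chosen after seeing the data. With either index, 6 members passed as lower at 0 h (1.32% and 1.28% of all genes). As higher in vehicle day 14 against day 1, 4 passed (1.05% and 1.02% of all genes higher). Without an index each was 0 (0.0361% and 0.0542%). Leaving out 1 library gave 0 (vehicle day 14 replicate 2, 0%) to 22 (replicate 3, 5.14%) on day 14. The upper ends that follow also came without vehicle day 14 replicate 3, with the share of all genes in the same direction. The range was 0 to 29 for vehicle day 14 against day 7 (4.08%) and 0 to 22 for the difference between days (2.61%). For vehicle day 14 against day 1 it was 0 to 2 (2.41%), at 0 h 0 to 1 (1.49%), and 0 to 0 elsewhere. The day 7 treatment median of 0.30 reversed to -0.0359 with the index (-0.0356 with the index without members). The medians at 1 h and 16 h, and of vehicle day 14 against day 1, changed sign when 1 library was left out. Over the 57 single-gene results, 1337 alternatives gave 1286 of the same call, 38 that lost it, 13 that gained it and 0 reversed. Of the 57, only the 4 day 14 calls and the Rpl10 differences between BXCL701 days had passed the threshold. Most of the 1286 are thus results not called either way, and say little about how stable the calls are. The causes were not tested. No paired analysis was possible because the labels give animal numbers and no number shared across groups.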
